A study of Drosophila sechellia and Drosophila melanogaster and Drosophila simulans with 18 samples.

Results

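The dopamine and octopamine receptor genes *Dop1R1*, *Dop1R2*, *Dop2R*, *DopEcR*, *Oamb*, *Oct-TyrR*, *Octbeta1R* and *Octbeta2R* were described in adult female flies fed control food or food with L-DOPA. These 8 genes were taken by name from the deposited expression tables, which list 50294 gene entries over 3 species. All 8 symbols were found among the 17649 genes of the *D. melanogaster* table, and none was found among the 15372 genes of *D. simulans* or the 17273 genes of *D. sechellia*, where most genes carry a numbered symbol. The receptor values below are therefore those of *D. melanogaster* alone, and the receptors of the other species were not analysed here. The *D. melanogaster* flies were females of a single strain (14021-0231.36). They were collected within days of eclosion and kept for 24 hr on instant *Drosophila* food without L-DOPA (control) or with 10 mg/ml L-DOPA. Values of 5 pathway genes are also given for *D. simulans* females (strain 14021-0251.195), kept on the same foods. Each food had 3 libraries per species of mRNA-selected RNA, each from a homogenate of pooled whole females. A value is therefore an average over all tissues of several animals.

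Dopamine and octopamine are amines that act on neurons and other tissues of the fly through G protein-coupled receptors, in roles that include arousal, learning, feeding and egg laying. L-DOPA is the direct precursor of dopamine, while octopamine is made from tyrosine by way of tyramine. Some of the receptors raise cyclic AMP in the cell that carries them, others lower it, and others release calcium. In bulk RNA, fewer cells that carry a receptor and less RNA per cell cannot be told apart.

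The expression values are FPKM, a measure of reads per gene scaled to gene length and library size, and the table holds 1 value per gene and food that the authors' software Cuffdiff combined over the 3 libraries. Without values for each library, no SD can stand beside an FPKM value, and the read depth behind it cannot be read from the table. The test results of the authors, which the table also holds, were left unused, so the differences between foods are given here without a test. Cuffdiff also gives each gene a status, which is OK where the gene had enough alignments for a test and NOTEST where it had too few. In *D. melanogaster*, 11341 genes had status OK and 6299 had NOTEST. The label of whole adult females was met by the markers. The yolk protein genes *Yp1*, *Yp2* and *Yp3* lay between 4160 and 8311 FPKM on control food, while 6 male reproductive genes lay between 0 and 0.598. The highest of these 6, *Mst87F*, had status OK and stood at 0.823 FPKM after L-DOPA. Neuron markers were detected throughout, with all 8 above 0 and control levels from 1.13 FPKM for *para*, a sodium channel gene, to 39.0 for *Csp*, a synaptic vesicle chaperone gene. These libraries therefore held neural RNA in which receptor transcripts could be sought.

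The receptor genes were low beside the genes with enough alignments for a test. Only 4 of the 8, *DopEcR*, *Octbeta2R*, *Oamb* and *Octbeta1R*, had status OK, and the other 4, *Oct-TyrR*, *Dop1R2*, *Dop2R* and *Dop1R1*, had NOTEST. Of the dopamine receptor genes 1 of 4 had status OK, against 3 of 4 octopamine receptor genes. On control food the levels ran from 0.117 FPKM for *Dop1R1* to 5.03 for *DopEcR*, a ratio of 43.0, while the median gene with status OK stood at 13.4. Each of the 8 genes lay below that median, from 2.66 times below it for *DopEcR* to 114 times below it for *Dop1R1*. The 4 genes with NOTEST lay below the male reproductive gene *Mst87F* on both foods, and *Octbeta1R* lay below it after L-DOPA. Their values are thus in a range that a male gene also reached in these females.

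**Figure D1:**
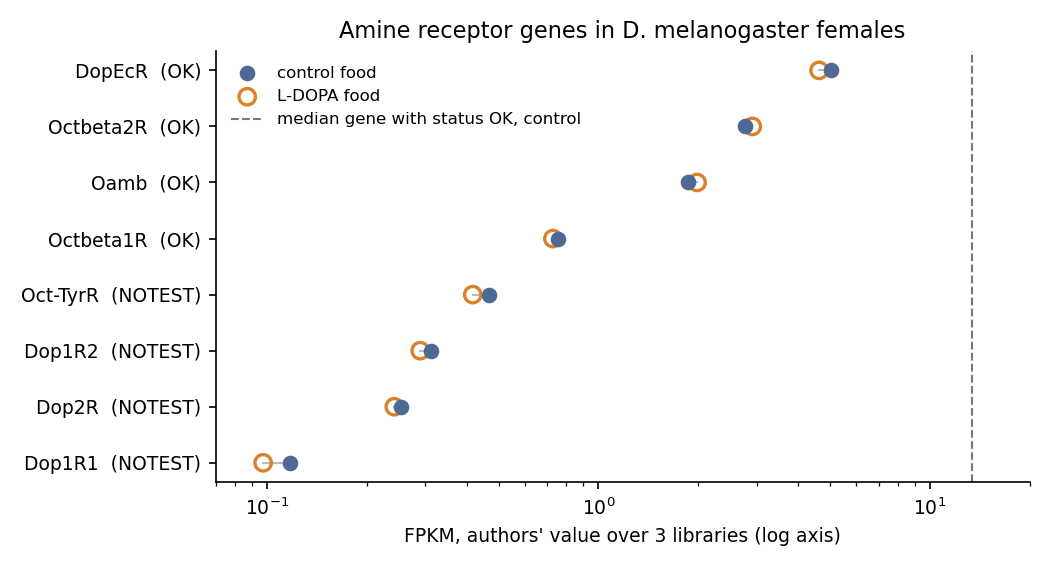
FPKM of each receptor gene (rows, with the Cuffdiff status in brackets) on control food (filled points) and L-DOPA food (open circles) in *D. melanogaster*, 1 authors' value per food on a log axis, with a dashed line at the median gene with status OK on control food. The genes are in the same order on both foods, from *DopEcR* near 5 FPKM to *Dop1R1* near 0.1 FPKM, and the distance between the foods is small beside the distance from the highest to the lowest gene.

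*DopEcR* encodes a receptor that answers both dopamine and ecdysteroid hormones, and it was the most abundant of the 8. Its level was 5.03 FPKM on control food and 4.63 after L-DOPA. It alone made up 88.0% of the summed FPKM of the 4 dopamine receptor genes on either food. *DopEcR* was the shortest of the 8 genes (FBgn0035538, BDGP6 chromosome 3L from 4367649 to 4380387, minus strand), with 5 merged exon blocks over 12.7 kb and 3 annotated transcripts. Of the genes with status OK, 27.4% had a lower control level than *DopEcR*, as did 53.2% of all genes in the table.

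*Dop1R1* and *Dop1R2* encode the D1-like dopamine receptors, which raise cyclic AMP and, in the case of *Dop1R2*, also calcium, and which are known for roles in learning and forgetting in the mushroom body. *Dop1R1* (FBgn0011582, chromosome 3R from 14165379 to 14214810, minus strand) was listed at 0.117 FPKM on control food and 0.0974 after L-DOPA, the lowest values of the 8. *Dop1R2* (FBgn0266137, chromosome 3R from 29630304 to 29659984, minus strand) was listed at 0.314 and 0.290 FPKM. *Dop2R* encodes the D2-like receptor, which lowers cyclic AMP and also acts as an autoreceptor on dopamine neurons. It was listed at 0.253 FPKM on control food and 0.242 after L-DOPA (FBgn0053517, chromosome X from 20004680 to 20062706, minus strand). These 3 classical dopamine receptor genes thus lay within 0.097 to 0.314 FPKM on both foods, and fewer than 1% of the genes with status OK had a lower control level than any of them (0.335%, 0.662% and 0.476% for *Dop1R1*, *Dop1R2* and *Dop2R*). Over all genes of the table, which include many listed at or near 0, these shares were 28.3%, 33.6% and 32.4%. The former shares count only genes with enough alignments for a test, a group that the 3 receptor genes were not in.

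Among the octopamine receptor genes, *Octbeta2R* encodes a beta-adrenergic-like receptor that raises cyclic AMP and is known for roles at the neuromuscular junction and in ovulation. Its level was 2.77 FPKM on control food and 2.91 after L-DOPA (FBgn0038063, chromosome 3R from 12550625 to 12595725, minus strand). *Octbeta2R* made up 47.2% of the summed FPKM of the 4 octopamine receptor genes on control food and 48.2% on L-DOPA. *Oamb* encodes the alpha1-adrenergic-like receptor, which raises calcium and is required in the oviduct epithelium for ovulation. It stood at 1.86 FPKM on control food and 1.98 after L-DOPA (FBgn0024944, chromosome 3R from 20689018 to 20714577, minus strand). Of the genes with status OK, 18.6% had a lower control level than *Octbeta2R* and 14.5% a lower one than *Oamb*, and of all genes 47.5% and 44.8%.

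*Octbeta1R* encodes another beta-adrenergic-like receptor, known as a brake on growth at larval motor endings. It stood at 0.758 FPKM on control food and 0.729 after L-DOPA (FBgn0038980, chromosome 3R from 22497215 to 22520078, plus strand). *Oct-TyrR* encodes a receptor that binds tyramine more strongly than octopamine and lowers cyclic AMP. It stood at 0.468 FPKM on control food and 0.418 after L-DOPA (FBgn0004514, chromosome 3L from 22035003 to 22065279, plus strand). *Octbeta2R* and *Oamb* were thus listed above the other 2 octopamine receptor genes on both foods.

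The order of the 8 levels was the same on both foods, with *DopEcR* highest, then *Octbeta2R*, *Oamb*, *Octbeta1R*, *Oct-TyrR*, *Dop1R2*, *Dop2R* and *Dop1R1*. Neighbours in this order differed by 1.24 times (*Dop1R2* over *Dop2R*) to 2.46 times (*Oamb* over *Octbeta1R*) on control food, and by 1.20 to 2.72 times for the same pairs on L-DOPA. Since no spread between libraries was at hand, which neighbours differ beyond it could not be said. The summed level of the 4 dopamine receptor genes, 5.71 FPKM on control food, was close to that of the 4 octopamine receptor genes, 5.86, but nearly all of the former was *DopEcR*.

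The receptor genes are long and consist mostly of introns. In the Ensembl annotation of BDGP6, whose spans for the 8 genes are those of the deposited table, they cover 12.7 kb (*DopEcR*) to 58.0 kb (*Dop2R*), of which 11.3% (*Dop2R*) to 33.7% (*DopEcR*) is exonic. The longest coding sequence is 966 bases in *DopEcR* and between 1524 (*Octbeta1R*) and 2715 (*Dop2R*) in the other 7 genes. *Dop1R1* has the widest range of transcript lengths, from 2616 to 14565 bases over 5 transcripts, and its last exon block makes up most of its exonic sequence. Since FPKM is scaled to length, the listed level of a gene with such different transcripts depends on which of them the software took the reads to come from, and the table does not separate them. The same holds for *Octbeta2R*, whose 6 transcripts run from 2260 to 6672 bases.

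**Figure D2:**
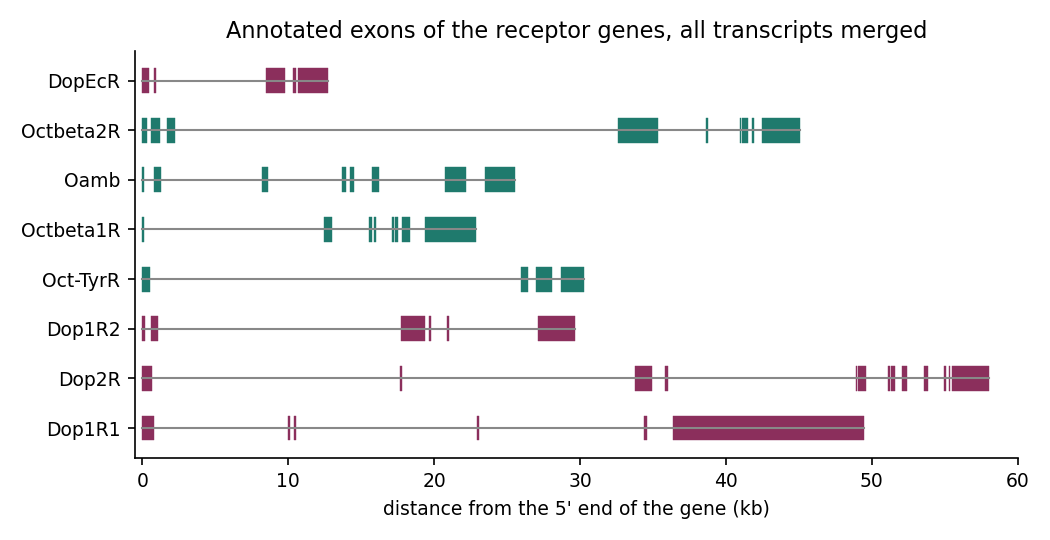
Annotated exons of the 8 receptor genes (boxes, purple for dopamine and green for octopamine receptors, all transcripts of a gene merged) along the distance from the 5′ end of the gene in kb, ordered from the highest control FPKM at the top to the lowest at the bottom. The lines between boxes are introns, which take up most of each gene, and *Dop1R1* ends in one long exon block.

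Few other genes lie inside these spans. The table shares a span between *DopEcR* and an lncRNA gene, between *Dop2R* and a protein-coding gene (*CG9570*) and a tRNA gene, and between *Octbeta2R* and the miRNA gene *mir-284*, and every one of these was listed at 0 on both foods. The annotation also places transposable elements within *Dop1R1*, *Dop1R2*, *Dop2R*, *Oct-TyrR* and *Octbeta2R*, for which no values were used here. The 3′ end of *Octbeta2R* lies 2395 bases from the 5′ end of *Octbeta3R*, the third beta-adrenergic-like octopamine receptor gene, on the same strand of chromosome 3R. *Octbeta3R*, which shares its span in the table with *Hug* and a further gene, was listed at 0.667 FPKM on control food and 0.629 after L-DOPA.

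The comparison of the foods addresses whether feeding the dopamine precursor came with a different level of the receptors for dopamine and octopamine. No receptor gene differed by as much as 1.5-fold in either direction. This held for 0 of the 4 genes with status OK, and for 0 of all 8, while 6.82% of the 11291 genes with status OK and a value above 0 on both foods differed by that much (2.67% by 2-fold). A difference of that size was more common at the low levels of the receptors, at 22.6% of the 4288 genes whose mean FPKM lay within the range of the 8 (10.7% by 2-fold). With 4 genes, a count of 0 is close to what a share of 6.82% gives, and it is no sign that the receptors were held steadier than other genes.

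Over the 4 genes with status OK the log2 change, L-DOPA over control, had a median of 0.01, against 0.00 for all genes with status OK. *Oamb* (log2 change 0.09) and *Octbeta2R* (0.07) were listed higher on L-DOPA. *DopEcR* (-0.12) and *Octbeta1R* (-0.06) were listed lower, as were 49.3% of all genes with status OK. The interquartile range of all genes with status OK ran from -0.09 to 0.11, with *Oamb*, *Octbeta2R* and *Octbeta1R* inside it and *DopEcR* just outside.

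The 4 genes with NOTEST were all listed lower on L-DOPA, at a median log2 difference of -0.14. The values were -0.27 for *Dop1R1*, -0.17 for *Oct-TyrR*, -0.11 for *Dop1R2* and -0.06 for *Dop2R*. All 4 dopamine receptor genes, and 2 of the 4 octopamine receptor genes, were therefore listed lower. Among the 4288 genes of the same range of levels, 53.4% were listed lower on L-DOPA. In summed FPKM, the dopamine receptors stood at 5.71 on control food and 5.26 after L-DOPA and the octopamine receptors at 5.86 and 6.04. Neither difference was tested, and neither direction is shown to be larger than the spread between libraries.

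At like levels, most genes differed more between the foods than the receptor did, except in the case of *DopEcR*. Like genes were matched on mean FPKM alone, and not on gene length or number of reads. The shares below are therefore no sign that the receptors were held steadier than other genes. *Dop1R1* had 1054 genes within 2-fold of its mean level, and 75.6% of them differed more between the foods than *Dop1R1* did. Their interquartile range ran from -0.66 to 0.58 on the log2 scale, and none of them had status OK. For *Dop2R* the share of like genes that differed more was 91.8%, for *Octbeta1R* 87.4%, for *Dop1R2* 82.7%, for *Octbeta2R* 73.2%, for *Oamb* 70.7% and for *Oct-TyrR* 69.7%. *DopEcR* had the lowest share, 47.8% of 2693 genes, whose interquartile range ran from -0.12 to 0.11. The share of like genes with status OK was larger at higher levels, from 12.1% at *Dop2R* and 26.9% at *Dop1R2* to 54.4% at *Oct-TyrR* and 87.7% at *Octbeta1R*. The share at *Oct-TyrR* covers genes from below to above its level. It therefore does not say how common NOTEST was at the level of *Oct-TyrR* itself.

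**Figure D3:**
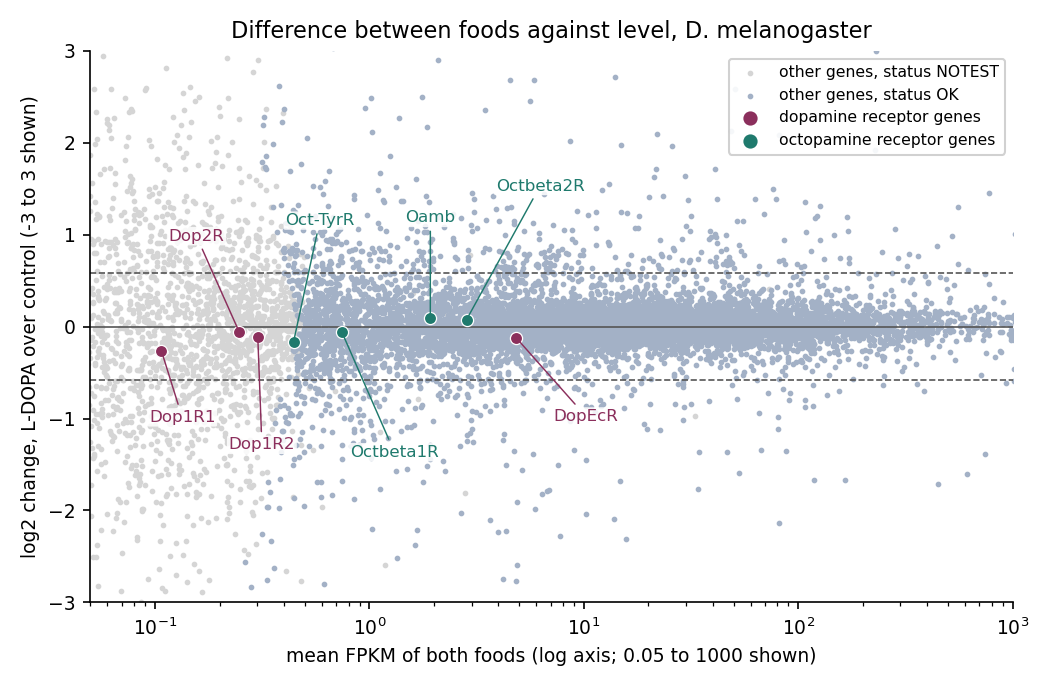
Log2 change of FPKM, L-DOPA over control, against the mean FPKM of both foods (log axis) for *D. melanogaster* genes above 0 on both foods with status OK or NOTEST, the dopamine receptor genes in purple and the octopamine receptor genes in green, with dashed lines at a 1.5-fold difference. The cloud of genes widens toward low levels, where *Dop1R1*, *Dop2R*, *Dop1R2* and *Oct-TyrR* lie, and all 8 receptor genes lie between the dashed lines.

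Neuron markers were also listed lower on L-DOPA. All 8 of them had a negative log2 change, against 49.3% of all genes with status OK. The changes ran from -0.00 for *elav* to -0.26 for *brp*, which encodes a protein of the presynaptic active zone. The 8 markers had a median log2 change of -0.11 and a summed level of 96.7 FPKM on control food and 89.4 after L-DOPA. The part of this in the lower values of the dopamine receptors was not tested. Relative to the median neuron marker, a reference chosen after the data were seen, *DopEcR* came to a log2 change of -0.00 and *Dop1R1* to -0.15, while *Dop1R2* (0.00), *Dop2R* (0.05) and *Octbeta1R* (0.06) no longer had a negative value. Female germline markers were lower in 5 of 6 cases, with a summed FPKM of 339 on control food and 299 after L-DOPA and none at 0. Muscle markers were higher in 3 of 4, with a summed FPKM of 2844 and 3081 and none at 0, and glia markers were higher in 2 of 4, with 43.5 and 41.6 and none at 0. Their part in the receptor values was not tested either.

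Other amine receptor genes had similarly low values. All 9 listed genes for further octopamine, tyramine and serotonin receptors were found, 4 of them with status OK, at control levels from 0.149 to 3.36 FPKM (median 0.412, against 0.613 for the 8 genes described here). None of the 9 differed by 1.5-fold, against 6.82% of all genes with status OK. Of the 9, the 4 with status OK were each listed lower on L-DOPA (median log2 change -0.09), against 49.3% of all genes with status OK. The 5 with NOTEST were listed lower in 1 case and higher in 4. The serotonin receptor gene *5-HT2A* was the highest of the 9, at 3.36 FPKM on control food and 3.04 after L-DOPA. It also had the largest log2 difference of those with status OK (-0.15). *Octalpha2R*, an alpha2-adrenergic-like octopamine receptor gene that the table lists as *CG18208*, had the smallest (-0.07).

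The listed genes for making, moving, regulating or removing the ligands had a median control level of 10.2 FPKM. The median was 0.613 for the receptors, and the ranges of the lists overlap. All 11 had status OK, with control levels from 0.610 FPKM (*Tbh*) to 70.7 FPKM (*Hn*). None of the 11 differed by 1.5-fold, against 6.82% of all genes with status OK. Of the 11, 8 were listed higher on L-DOPA and 3 lower (median log2 change 0.11), while 49.3% of all genes with status OK were lower. The highest of the 11 was *Hn*, phenylalanine hydroxylase (70.7 FPKM on control food and 63.7 after L-DOPA). Among the genes of octopamine synthesis, *Tbh*, the enzyme that turns tyramine into octopamine, had the largest positive value (0.610 and 0.716 FPKM, log2 change 0.23) and *Tdc2*, the neuronal tyrosine decarboxylase, the largest negative one (1.42 and 1.24 FPKM, -0.20). *Tdc2* and *Tdc1* share a span in the table with each other and with further genes, so their reads may be split. *Tbh* shares a span with *CG15333*, so the same holds for it.

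The genes of the signalling proteins that act behind the receptors had a median control level of 20.2 FPKM, with a range from 1.47 to 419 FPKM that overlaps that of the receptors. All 21 listed genes had status OK, and none differed by 1.5-fold, against 6.82% of all genes with status OK. Of the 21, 9 were listed higher and 12 lower (median log2 change -0.02), while 49.3% of all genes with status OK were lower. None of these counts was tested. The highest of the 21 was *Ggamma1*, a G protein gamma subunit gene (419 FPKM on control food and 375 after L-DOPA). The adenylyl cyclase gene *rut*, known for its role in learning, had the largest positive log2 change (0.15, from 2.70 to 3.00 FPKM). *Galphao*, a G protein alpha subunit gene of the Go class, had the largest negative one (-0.26, from 13.2 to 11.0 FPKM). In the table *rut* shares a span with *Ag5r* and a further gene, and *Galphao* with *Cyp49a1*, so their reads may also be split.

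**Figure D4:**
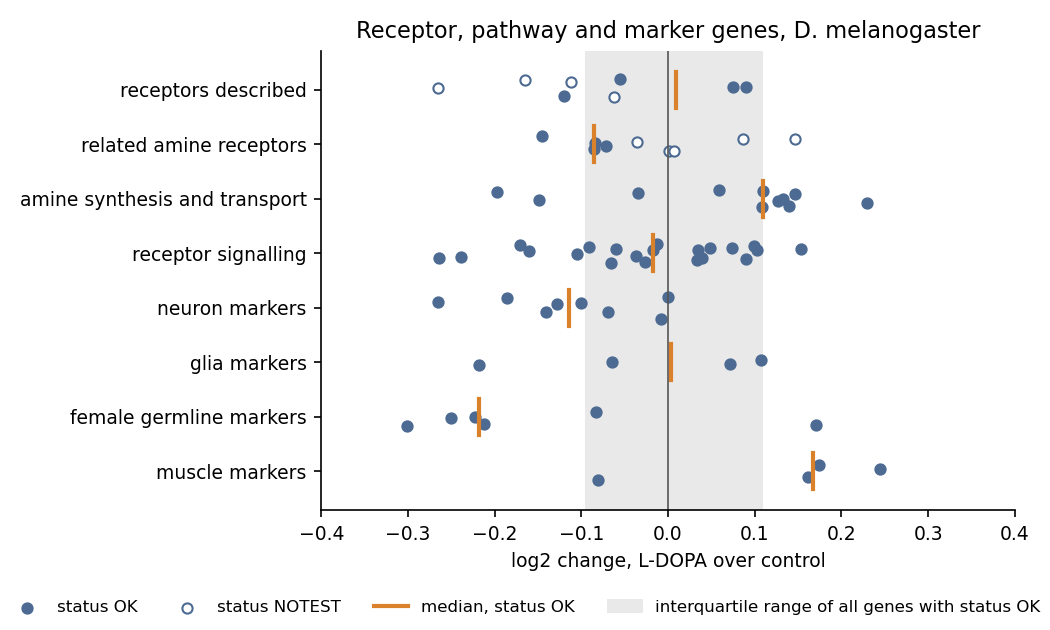
Log2 change of FPKM, L-DOPA over control, for each gene of the receptor and pathway lists and of the neuron, glia, female germline and muscle marker lists in *D. melanogaster* (male reproductive and yolk protein genes not shown), with filled points for status OK, open points for NOTEST, an orange bar at the median of the genes with status OK, and a grey band over the interquartile range of all genes with status OK. The lowest point is at -0.30 (*otu*, a female germline marker) and the highest at 0.25 (*Act88F*, a muscle marker), the 4 open points of the receptors described lie below 0, and all 8 neuron markers lie at or below 0.

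Of the pathway genes, the *D. simulans* table names 5 and the *D. sechellia* table none. In *D. simulans* all 5 were listed lower on L-DOPA. With status OK these were *Ddc* (17.0 FPKM on control food, 15.7 after L-DOPA), *Catsup* (63.1 and 58.6), *e* (6.56 and 6.22) and *rut* (1.25 and 1.11). *Tbh* had NOTEST, at 0.332 and 0.300 FPKM. The median gene with status OK in that species was also lower, at 12.3 FPKM on control food and 11.6 after L-DOPA. The share of all *D. simulans* genes listed lower was not computed, so the 5 lower values are no result about these genes. In *D. melanogaster*, *e* was also listed lower, while *Ddc*, *Catsup*, *rut* and *Tbh* were listed higher. The directions were not tested in either species. The tables were normalised separately, so these levels are not compared with those of *D. melanogaster*.

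The genes with status OK and a name whose 2 values lay nearest to those of a receptor, by distance on the log2 scale, were *ash1* for *DopEcR* (5.05 FPKM on control food and 4.64 after L-DOPA, distance 0.01), *spo* for *Octbeta2R* (2.77 and 2.88, distance 0.02), *beat-IIa* for *Oamb* (1.90 and 1.97, distance 0.03) and *Obp99d* for *Octbeta1R* (0.753 and 0.719, distance 0.02). For the 4 receptors with NOTEST, the distance ran from 0.07 (*Oct-TyrR* to *nompA*) to 2.31 (*Dop1R1* to *Cpr47Eb*). With only 2 values behind each distance, it says that a gene had similar levels and no more.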

How the data were processed

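Per the labels and the study's methods, 18 libraries were made, 3 per food and species. The authors checked single-end reads with FastQC, aligned them with Bowtie2 to BDGP6, ASM75419v3 or dsec_caf1 and quantified genes in Cuffdiff, with its geometric normalization and its correction for gene length. Software versions are not given in the sources used here. The authors' deposited FPKM values are 1 per gene and food, combined over 3 libraries. The tables also hold the authors' log2 fold changes, test statistics, p-values, q-values and calls, which were not used.

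Each log2 change is the log2 of the deposited L-DOPA FPKM over the control FPKM, with no pseudocount added. A gene counted as different at 1.5-fold or more. Genes were named by these rules: the 8 receptors, in each of the 3 lists of related receptors, ligand enzymes and signalling the highest gene and the largest positive and negative log2 change among genes with status OK, and the gene nearest to each receptor. *Octbeta3R*, *Csp*, *para*, *elav*, *brp*, *otu*, *Act88F*, *Mst87F* and the *Yp* genes were named in addition. So were the genes inside the receptor spans and those of *D. simulans*. The receptors and lists were chosen with earlier results of these data known. Genes were matched by symbol, and *Octalpha2R* and *Itpr* by identifier. Coordinates are from Ensembl release 115, which holds 17512 of the 17649 identifiers. The fold count was run on simulated 2-fold changes over little noise, which checks the counting and not the spread in these data. Alternatives were a pseudocount of 0.1 or 1 FPKM, centring, other filters and a 2-fold limit. Python 3.11.15, numpy 2.4.6, pandas 2.3.3 and matplotlib 3.10.9 were used.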

Additional observations from a re-analysis of the deposited data

How the results depend on the processing

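No receptor gene was past the limit under the 7 alternatives run, which were a pseudocount of 0.1 or 1 FPKM, centring on the median gene, a minimum of 1 FPKM on each food (3 receptors), no filter (8 receptors), a 2-fold limit and, chosen after the data were seen, centring on the median neuron marker. Of these, the pseudocounts, the 2-fold limit and the FPKM minimum could not have added to a count of 0. The median log2 change of the receptors, 0.01 with status OK, was 0.01 and 0.02 with the pseudocounts, 0.01 centred on the median gene, 0.07 with the FPKM minimum and -0.09 with no filter, and 0.12 centred on the median neuron marker. Its sign therefore depends on whether the 4 genes with NOTEST are counted. A filter leaves the value of a single receptor as it is, so only pseudocounts and centrings were counted. Of 32 such values, 21 lay within 0.1 of the main log2 change. Centring on the median gene moved every receptor by less than 0.1, and centring on the median neuron marker moved every receptor by more. The count could therefore vary only through the pseudocounts. The farthest move was that of *Dop1R1*, from -0.27 to -0.03 with a pseudocount of 1 FPKM, which is larger than its FPKM. Centring on the median neuron marker raises every gene by the same amount. It therefore gave the opposite sign to the receptors with a smaller negative value, *Dop1R2*, *Dop2R* and *Octbeta1R*, and tests no cause. No paired analysis was possible because the tables hold no values of single libraries, and leaving out a replicate was not possible for the same reason. The alternatives for *D. simulans* and *D. sechellia* were not run, since their tables hold none of the 8 symbols.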
